A study of Mus musculus with 12 samples.

Results

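Livers that lack Atf4 were compared with wild-type livers, both 6 h after tunicamycin. This drug stops the attachment of N-linked sugars to new proteins, which then misfold in the endoplasmic reticulum (ER) and set off ER stress. The comparison covers the 11343 loci that carry a gene name and reach at least 1 FPKM (fragments mapped to a transcript, scaled for its length and for the library's total) in either tunicamycin group, out of 27109 loci in the authors' deposited table, 23951 of them named. All mice were C57BL/6 and were either wild type or LsATF4-KO, a liver-specific knockout of Atf4. They received 1 mg/kg tunicamycin or 0.3% DMSO, the solvent, by intraperitoneal injection 6 h before the livers were taken. Each of the 4 combinations has 3 libraries of poly(A)-selected liver RNA, 12 in all. Both tunicamycin groups and the wild-type DMSO group ran on lane 4, and the knockout DMSO group ran alone on lane 5. The sources used here do not give the sex and age of the mice, the Cre line or whether each library is a separate mouse.

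ATF4 is a leucine zipper transcription factor whose mRNA is translated better when the initiation factor eIF2 is phosphorylated, as the ER kinase PERK does under ER stress. It binds DNA mostly as a dimer with C/EBP proteins, at composite sites that join a C/EBP and an ATF element, and is known for turning on amino acid synthesis, amino acid import, tRNA charging and regulators such as Chac1, Trib3 and Fgf21. ER chaperones and degradation factors are controlled mainly by the ATF6 and IRE1 to XBP1 branches of the same response. In liver, which secretes most plasma proteins, both sets are strongly induced by tunicamycin.

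The table gives 1 FPKM per locus and group, with the 3 libraries pooled, so the spread between libraries cannot be shown, and the depth per library is unknown. A locus is called here when its q-value in the authors' deposited table is under 0.05 and its test status is OK. "Rose", "fell", "higher" and "lower" are used of called loci and always mean knockout against wild type under tunicamycin unless DMSO is named. Log2 differences are ratios of the group FPKM, and their 95% intervals were derived from the deposited test statistic. In whole tissue, fewer cells of a type and less RNA per cell cannot be told apart.

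The targeted gene was checked first. Atf4 shares a locus with Cacna1i (mm9 chr15:80085614-80228829), so its own reads cannot be separated. That locus had 46.9 FPKM in unstressed (DMSO) wild-type liver and 356 in stressed (tunicamycin) wild-type liver, and 22.8 and 114 FPKM in the respective knockout livers. The knockout level was thus 1.64 lower on the log2 scale under tunicamycin, at a deposited q of 0.000396 in the authors' deposited table, but well above that of unstressed wild-type liver. The part of the gene that was deleted, and the cell types of the liver that keep it, are not stated by the labels. Rps19bp1, listed at the same coordinates, stood at 23.6 FPKM in stressed wild type against 3.94 in the stressed knockout and was not called. Of 215 tested loci within 10 Mb of Atf4 on chromosome 15, 14 were called (6.51%), against 6.05% of all tested loci.

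Of 11327 loci tested, 685 were called (6.05%), of which 391 were higher (3.45%) and 294 were lower (2.6%) in the knockout. Every list count below is to be set against these shares, and a list with a single call is not read as changed. The falls were many and modest, with a median of -0.73 on the log2 scale, and 69 of them were at least 2-fold. The rises were larger, with a median of 1.44 and 282 at least 2-fold. Without loci at least 5 times higher in the stressed knockout than in each other group, their median was 1.20. The median FPKM in unstressed wild-type liver was 1.34 for loci that rose, 10.02 for loci that fell and 8.70 for all tested loci. Loci under 1 FPKM in stressed wild type enter only through a higher knockout value. Large rises at low levels thus follow in part from the limit of 1 FPKM. Among the 7384 tested loci with at least 5 FPKM in unstressed wild-type liver the balance turned, with 96 higher (1.3%) and 197 lower (2.67%). The median log2 difference over all tested loci was -0.05. With p-values adjusted over this comparison alone, rather than over all comparisons in the table, 440 loci were called, 285 higher and 155 lower.

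**Figure D1:**
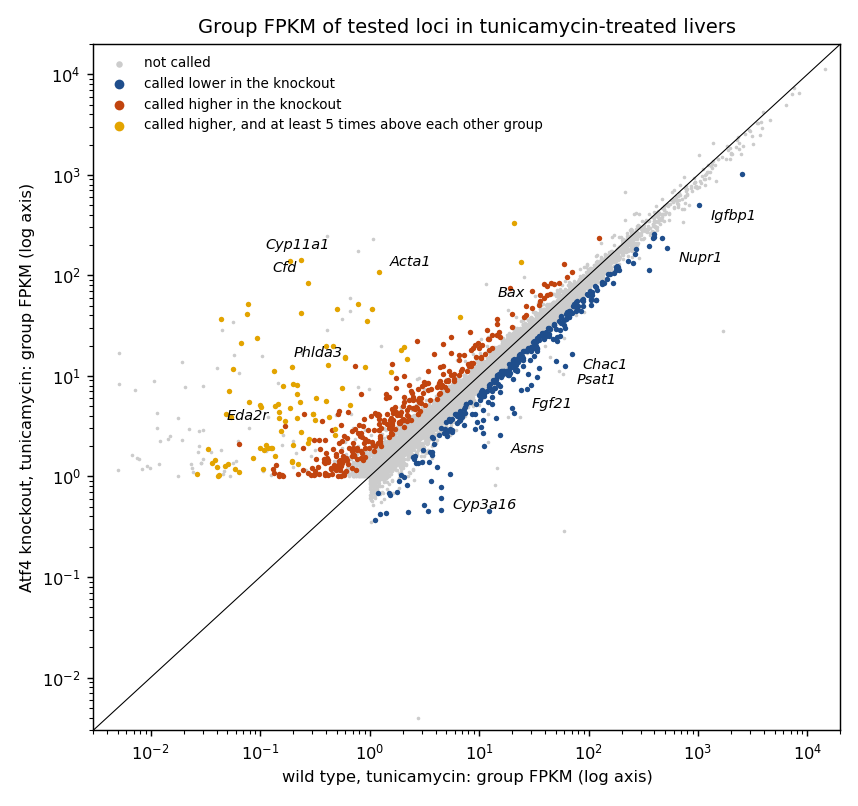
Group FPKM of tested loci in tunicamycin-treated wild-type liver (horizontal) and Atf4 knockout liver (vertical), both on log axes; each point is 1 locus and the line marks equal levels. Falls (blue) run as a band just under the line, with Asns, Psat1 and Chac1 well below it, while rises are orange or, where the stressed knockout was at least 5 times above each other group, yellow, and most yellow loci are near 0 in wild type.

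Enzymes that make amino acids gave some of the deepest falls. Asns, which makes asparagine from aspartate (mm9 chr6:7625130-7643199), had 0.236 FPKM in unstressed wild-type liver, 15.5 after tunicamycin in wild type, 0.105 in the unstressed knockout and 2.60 in the stressed knockout. The stressed knockout was 5.96-fold lower, a log2 difference of -2.57 with an interval from -3.15 to -2.0. Aldh18a1, which commits glutamate to proline synthesis, stood at 0.392, 27.7, 0.481 and 7.36 FPKM in the same order of groups, a difference of -1.91. Pycr1, the reductase that completes proline, had 2.18 FPKM in stressed wild type and 0.831 in the stressed knockout. In all 3 genes both DMSO groups were below 0.5 FPKM, and both stressed groups lay above them. The list of asparagine, proline, alanine and aspartate enzymes counted 3 of 10 tested members lower and 0 higher, and all 10 ratios lay below 1. The transaminases Got1 (707 against 459 FPKM) and Gpt2 (400 against 271 FPKM) were not called.

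Some enzymes of serine synthesis and of the mitochondrial folate branch fell with them. Psat1, the aminotransferase of serine synthesis (mm9 chr19:15979613-15999549), went from 0.328 FPKM unstressed to 61.5 stressed in wild type, and from 0.286 to 12.5 in the knockout, so that the stressed knockout was 4.91-fold lower (log2 -2.30, interval -2.69 to -1.90). Psph, the phosphatase that releases serine, had 14.3 FPKM in stressed wild type and 3.79 in the stressed knockout, the latter close to the 3.94 of unstressed wild type. Aldh1l2, a mitochondrial 10-formyltetrahydrofolate dehydrogenase, showed the largest fall of the list, from 4.45 to 0.459 FPKM (log2 -3.28, interval -3.89 to -2.67). Mthfd1l, which yields formate in mitochondria, had 1.79 against 0.703 FPKM. These 4 of 10 tested members fell and 0 rose, with a list median of -0.91. Phgdh, also on the list, had no test. Mthfd2, another mitochondrial folate enzyme, stood at 12.1 and 2.18 FPKM and was not called. Its derived interval, from -4.14 to -0.80, leaves out 0 although the authors' deposited Cuffdiff test gave a p of 0.051, so it is too narrow. Mthfd2l was also uncalled, with a log2 difference of 0.55. The cytosolic folate enzymes Shmt1 (44.4 and 42.6 FPKM), Mthfd1 (39.8 and 36.4 FPKM) and Aldh1l1 (251 and 248 FPKM) were not called either, and their point differences were within 0.14. The median of this list shrank to -0.59 when 1 FPKM was added before taking logs.

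Because ATF4 binds composite C/EBP-ATF sites, promoter sequences of the called loci were searched for TGATGNAAN on both strands, in RefSeq windows from 250 bases before to 50 after each transcript start (GRCm38.p6, a later build than the mm9 positions of the table). The promoters of Asns and Chac1, the largest called falls of their own lists, are printed up to the start, 5′ to 3′ on the gene's strand. The match is in capitals, and in Chac1 it lies on the opposite strand. Aldh1l2 and Psat1 fell more than Chac1, but no window was found for Aldh1l2 and no match in those of Psat1. Asns is chr6:7693210-7693459, minus strand, and its match begins 23 bases before the start. Chac1 is chr2:119350992-119351241, plus strand, and its match begins 194 bases before the start.
Asns: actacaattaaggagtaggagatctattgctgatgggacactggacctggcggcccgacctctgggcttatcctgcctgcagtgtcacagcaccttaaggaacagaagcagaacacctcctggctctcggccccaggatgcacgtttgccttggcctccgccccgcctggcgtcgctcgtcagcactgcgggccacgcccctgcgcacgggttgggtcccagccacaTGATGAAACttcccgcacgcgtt
Chac1: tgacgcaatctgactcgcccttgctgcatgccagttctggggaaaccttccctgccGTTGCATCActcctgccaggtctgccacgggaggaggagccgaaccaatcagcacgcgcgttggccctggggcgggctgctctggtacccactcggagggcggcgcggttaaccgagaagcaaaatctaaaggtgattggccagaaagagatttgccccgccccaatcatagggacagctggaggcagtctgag

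Promoter windows were found for 227 of the 301 gene names on loci that fell, and 24 of them (10.6%) held the motif. It was present in 233 of 8651 names on tested loci (2.69%), in 6 of 273 names on loci that rose (2.2%) and in 1215 of 27025 names in the whole promoter table (4.5%). Of the names that fell and belong to the pathway lists described here, 13 of 44 held it (29.5%), against 11 of 183 names that fell outside those lists (6.01%). The 8-base core TGATGCAA, which is contained in the first motif, was found in 13 names that fell (5.73%), against 0.774% of names on tested loci. A match is a run of letters and not a shown binding site, and these lists were drawn up from earlier knowledge of ATF4 targets and of these data. The 13 matches are shown with 10 bases on either side, on the strand that reads TGATG, because they span synthesis, import, tRNA charging and signalling genes.
Asns: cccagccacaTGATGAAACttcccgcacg
Atf3: gcggacttggTGATGCAAGtgcgagaagg
Chac1: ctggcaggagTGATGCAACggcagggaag
Fgf21: cctggacggaTGATGCAATgggggggtct
G6pc: atcagtaggtTGATGCAAAcatgttcagg
Gars: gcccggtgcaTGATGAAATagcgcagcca
Iars: cgtctggaggTGATGCAATactgacagtg
Lpin2: ctgttctgtgTGATGGAAGctgtagttga
Nupr1: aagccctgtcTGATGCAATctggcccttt
Pycr1: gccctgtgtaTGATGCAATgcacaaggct
Slc1a4: aggctggagaTGATGCAACgcaggaggca
Tars: gctaaccagcTGATGCAACgggactcctg
Vldlr: ctaggagcgcTGATGCAACtattgctgct
No match was found in the windows of Psat1, Slc6a9, Aldh18a1, Ddit3 or Phlda3. Trib3 has 1 match that begins at the 14th base of the transcript.

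Amino acid import fell at 5 of 15 tested transporters, 1 rose, and the list median was -0.47. Slc6a9, the glycine transporter GlyT1, had 12.9 FPKM in unstressed wild type, 33.99 in stressed wild type, 9.81 in the unstressed knockout and 9.69 in the stressed knockout, so it was nearly equal in both knockout groups and 3.51-fold lower than in stressed wild type (log2 -1.81, interval -2.20 to -1.42). Slc7a1, a cationic amino acid transporter, had 11.1 against 6.61 FPKM, Slc1a4, a neutral one, 6.35 against 3.98, and Slc3a2, the heavy chain shared by several exchangers, 68.3 against 44.4. Slc7a5, a light chain that pairs with Slc3a2 and carries large neutral amino acids, had 5.62 against 3.71 FPKM. The glutamine carrier Slc1a5 went the other way, from 4.53 to 7.83 FPKM (log2 0.79). Slc7a11, the cystine carrier, fell as well but lies under the 1 FPKM limit, at 0.590 and 0.109 FPKM. The most abundant transporters, Slc38a3 (762 and 612 FPKM) and Slc38a4 (254 and 184 FPKM), were not called. Adjusted over this comparison alone, 3 transporters fell and 0 rose.

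Charging of tRNA followed the same direction in the cytosol. Of 20 cytosolic tRNA synthetases 6 fell, 0 rose and 18 had ratios below 1, with a median of -0.38. Cars, for cysteine, stood at 7.33 and 13.1 FPKM in unstressed and stressed wild type, and at 5.33 and 5.21 in the knockout. Gars, for glycine, had 85.8 against 43.8 FPKM under stress (log2 -0.97, interval -1.34 to -0.60), and Nars, for asparagine, 184 against 117. Iars, Lars and Tars fell by 0.74, 0.72 and 0.62 on the log2 scale. Aars (159 and 122 FPKM), Eprs (153 and 109 FPKM) and Sars (88.3 and 68.1 FPKM) were the most abundant that were not called. Among 17 mitochondrial tRNA synthetases Cuffdiff called 0, with 0 at an unadjusted p under 0.05 and a median of -0.07. Cars2 had 20.5 and 17.8 FPKM and Lars2 128 and 138.

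Stress regulators fell in part. Chac1, which cleaves glutathione (mm9 chr2:119176978-119180062), had 1.96 FPKM in unstressed wild type and 70.5 after tunicamycin, and 1.38 and 16.4 in the knockout, a 4.29-fold lower stressed level (log2 -2.10, interval -2.51 to -1.69). Nupr1, a stress-induced chromatin-associated protein, went from 2.85 to 525 FPKM in wild type and from 1.79 to 187 in the knockout (log2 -1.49). Ddit4, an inhibitor of mTORC1, had 52.0 against 22.1 FPKM under stress, Eif4ebp1, a translation inhibitor downstream of mTORC1, 117 against 56.4, and Ppp1r15a, the stress-induced eIF2 phosphatase subunit, 60.8 against 29.6. Smaller falls were seen in Atf3 (395 against 261 FPKM) and Vldlr (4.50 against 3.02 FPKM), both of which lost their call with adjustment over this comparison alone. In all, 7 of 19 tested members fell and 1 rose, with a median of -0.43. The riser was Tnfrsf10b, a death receptor, at 0.344 against 2.32 FPKM (log2 2.75), and it was higher under DMSO too. Atf3 was also lower under DMSO, at 2.58 against 1.06 FPKM.

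Other members of that list reached levels in the knockout that were not called different. Ddit3, which encodes CHOP, reached 2385 FPKM in stressed wild type and 2066 in the stressed knockout (log2 -0.21, interval -0.79 to 0.38). Atf5 reached 405 and 311 FPKM (log2 -0.38, interval -0.84 to 0.07), and Trib3, a pseudokinase, 386 and 272 FPKM (log2 -0.50, interval -0.95 to -0.06), with a q of 0.0951 for Trib3 in the authors' deposited table. None of these 3 was called, although Atf5 was lower in the knockout under DMSO, at 135 against 61.8 FPKM. Sesn2 (16.4 and 15.5 FPKM) and Cebpg (55.2 and 49.6 FPKM) differed by less than 0.16.

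**Figure D2:**
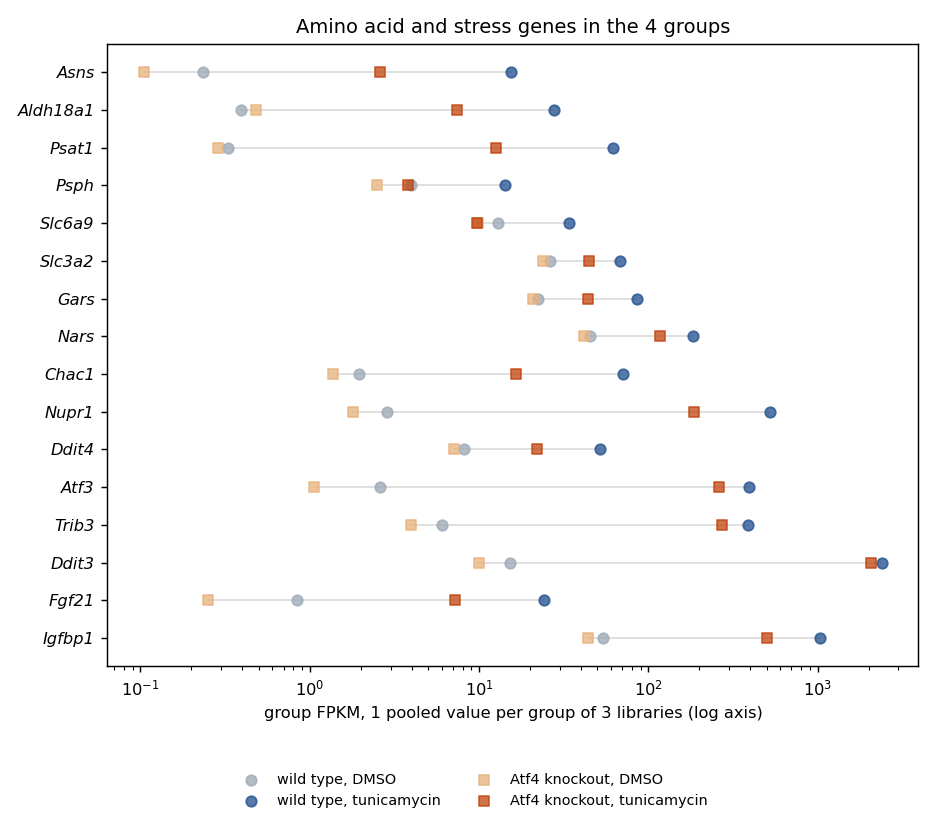
Group FPKM on a log axis for 16 genes of amino acid supply and stress signalling; circles are wild type, squares knockout, pale DMSO and dark tunicamycin, each 1 pooled value of 3 libraries (symbols may overlap). The dark square lies left of the dark circle in every gene shown, far left for Asns, Psat1 and Slc6a9 and almost on it for Ddit3. The genes were picked, and list members with ratios above 1, such as Slc1a5, Tnfrsf10b and Gdf15, are not shown. The shared direction thus follows from the choice.

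Secreted stress signals divided. Fgf21, a hepatokine that alters fuel use in other tissues, had 0.840 FPKM in unstressed wild type, 24.0 in stressed wild type, 0.250 in the unstressed knockout and 7.21 in the stressed knockout (log2 -1.74, interval -2.28 to -1.20). The knockout was lower than wild type by a similar ratio under DMSO, where the difference was not called. Igfbp1, which binds insulin-like growth factors, had 1028 against 500.1 FPKM under stress, and Angptl4, an inhibitor of lipoprotein lipase, 104 against 58.3. Gdf15, the other widely studied stress hormone on the list, was not called, at 64.4 and 79.9 FPKM. The count was 3 of 11 lower and 0 higher. Angptl4 was also called lower under DMSO (log2 -0.53).

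Genes of the ER folding machinery were mostly not called. Of 23 tested ER chaperones and oxidoreductases 1 fell and 0 rose, although all 23 ratios lay below 1 (21 after centring on the median of all loci; list median -0.24). The called one was Ero1l, the oxidase that recharges protein disulfide isomerases, at 5.18 FPKM unstressed and 51.2 stressed in wild type and 4.83 and 24.4 in the knockout (log2 -1.07, interval -1.45 to -0.69). Calr (3101 and 2430 FPKM), Creld2 (2572 and 1954 FPKM) and Pdia4 (2372 and 1818 FPKM) were the most abundant uncalled members, with intervals between -1.18 and 0.44. Hspa5 and Hsp90b1 are listed at 0 FPKM in both tunicamycin groups with a status that marks too many fragments to test, so they could not be compared. Among 21 ER-associated degradation genes Cuffdiff called 0, with 0 at an unadjusted p under 0.05 and a median of -0.24. Herpud1 stood at 1978 and 1438 FPKM, Syvn1 at 796 and 642 and Derl3 at 737 and 461. Of 25 translocation and COPII transport genes 0 were called, with 0 at an unadjusted p under 0.05 and a median of -0.11.

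Sensor genes of the response were mostly not called either. Of 13 tested sensors, eIF2 kinases and phosphatase subunits 1 fell, Ern1, which encodes IRE1, at 61.8 against 41.0 FPKM (log2 -0.59, interval -1.03 to -0.15). Atf6 had 94.7 against 64.9 FPKM and was not called, nor were Xbp1 (180 and 162 FPKM) and Eif2ak3, which encodes PERK (35.0 and 28.8 FPKM). In the NRF2 and glutathione list 1 of 14 fell, Hmox1, the heme oxygenase, at 29.8 against 17.5 FPKM. Autophagy counted 1 of 18 lower, Gabarapl1 (228 against 140 FPKM), and 1 higher, Map1lc3a (26.9 against 40.8 FPKM). The Ern1 and Map1lc3a calls were lost with p-values adjusted over this comparison alone.

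Bile acid synthesis and transport counted 8 of 17 tested genes lower and 1 higher, with a median of -0.47. Cyp39a1, an oxysterol 7-alpha-hydroxylase, had 29.5 FPKM in unstressed wild type, 35.3 in stressed wild type, 16.9 in the unstressed knockout and 12.0 in the stressed knockout (log2 -1.56, interval -1.96 to -1.17). Cyp8b1, which directs synthesis to cholic acid, had 105 against 56.9 FPKM under stress, Baat, which conjugates bile acids, 140 against 83.4, and Cyp7b1, of the alternative pathway, 10.4 against 6.12. Nr0b2, the repressor SHP, had 6.6 against 3.55 FPKM. Of the remaining falls, Abcb11 is the export pump, Cyp7a1 the rate-limiting enzyme and Cyp27a1 the sterol 27-hydroxylase, and they fell by 0.70, 0.62 and 0.55 on the log2 scale. Akr1d1, the 5-beta-reductase, rose from 30.5 to 70.2 FPKM (log2 1.20, interval 0.71 to 1.69). Cyp39a1, Cyp8b1 and Baat were also lower under DMSO. With p-values adjusted over this comparison alone, 3 of the 8 falls and the rise were called.

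Cholesterol genes changed at single members, which is not read as a change of the lists. Among all tested loci 3.45% were higher and 2.6% lower. In the synthesis list 1 of 18 rose, Dhcr7, which catalyses the last step to cholesterol, at 36.5 FPKM in unstressed wild type, 14.7 in stressed wild type, 46.7 in the unstressed knockout and 36.5 in the stressed knockout (log2 1.31, interval 0.90 to 1.72). Mvd, the mevalonate decarboxylase, fell from 77.5 to 53.8 FPKM. Scarb1, the HDL receptor, rose from 59.5 to 128 FPKM (log2 1.11), 1 of 13 uptake and sensing genes, while Srebf2, a sterol-sensing transcription factor (10.1 and 12.2 FPKM), was not called. In the efflux and lipoprotein list, Soat2 and Lipc fell by 0.54 and 0.50 on the log2 scale and Apoa4 rose by 0.61, among 18 tested. The calls of Mvd, Soat2 and Lipc were lost with adjustment over this comparison alone, and those of Dhcr7, Scarb1 and Apoa4 were kept. Scarb1 is also abundant in steroid-making cells, and markers of adrenal cortex summed to 1290 FPKM in the stressed knockout and 23.5 in stressed wild type; their part in the Scarb1 value was not tested.

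In fatty acid oxidation Cuffdiff called 0 of 22 genes, with 1 at an unadjusted p under 0.05 and a median of -0.07; Cpt1a, the carnitine transferase that admits fatty acids to mitochondria, had 100.3 and 99.4 FPKM. In fatty acid and triglyceride synthesis 4 of 18 fell and 2 rose. Lpin1, a phosphatidate phosphatase and coactivator, had 53.2 FPKM in unstressed wild type, 108 in stressed wild type, 128 in the unstressed knockout and 63.1 in the stressed knockout, so it was higher than wild type under DMSO and lower under tunicamycin. Thrsp, a lipogenic protein, had 190 against 112 FPKM under stress, Mlxipl, the carbohydrate response factor ChREBP, 78.3 against 46.6, and Lpin2 31.6 against 21.7. Gpam, the first enzyme of glycerolipid synthesis, rose from 10.4 to 15.1 FPKM and Acacb, which makes malonyl-CoA, from 4.08 to 5.88. Adjusted over this comparison alone, 2 of the 4 falls, Lpin1 and Thrsp, and neither rise were called. G6pc, the glucose-6-phosphatase catalytic subunit, was the only called gene of 13 in glucose handling, at 134 against 81.8 FPKM (log2 -0.71), and Pck1 was not called at 144 and 147. Among 22 urea cycle and amino acid catabolism genes Cuffdiff called 0, with 2 at an unadjusted p under 0.05 and a median of -0.27. In the methionine and transsulfuration list Ahcy and Cth fell by 0.63 and 0.56 on the log2 scale, 2 of 11, and neither call was kept with adjustment over this comparison alone. Ahcy was also called lower under DMSO.

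Hormone-controlled liver genes showed some of the steepest ratios. Hsd3b5, a male-biased steroid dehydrogenase, had 6.71 FPKM in unstressed wild type, 3.41 in stressed wild type, 5.0 in the unstressed knockout and 0.452 in the stressed knockout (log2 -2.91, interval -3.93 to -1.90). Elovl3, a fatty acid elongase, had 5.41 against 1.06 FPKM under stress and Bcl6, a repressor, 9.25 against 4.17. A1bg, a female-biased plasma protein, rose from 14.7 to 25.4 FPKM (log2 0.80) and was also called higher under DMSO (log2 1.13). Growth hormone axis and sex-biased genes thus counted 3 of 14 lower and 1 higher, and the labels do not state the sex of any mouse. Cyp3a16 fell from 4.52 to 0.614 FPKM, with Cyp2d12/Cyp2d9 and Cyp2c37, 3 of 21 P450 genes, and P450 genes share close copies among which reads may be split. Under DMSO 5 of the 21 were called lower in the knockout, Cyp3a16 (log2 -4.15) and Cyp2c37 (log2 -0.77) among them. Hnf4a, a master regulator of hepatocytes, fell from 186 to 121 FPKM (log2 -0.63, interval -1.09 to -0.16), 1 of 14 hepatocyte transcription factors, and its call was lost with adjustment over this comparison alone.

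Immediate early genes counted 3 of 10 lower: Zfp36, which destabilises mRNAs (59.3 against 32.1 FPKM), Junb (18.2 against 10.9 FPKM) and Egr1 (10.4 against 6.92 FPKM). Ier3 and Jun had ratios above 1 (log2 1.26 and 0.38) at an unadjusted Cuffdiff p under 0.05, but were not called. Of 20 acute phase genes 1 fell, Apcs, serum amyloid P, at 470 against 235 FPKM (log2 -0.998). Of 14 heat shock and mitochondrial chaperones 1 rose, Hsp90aa1, at 11.4 against 16.5 FPKM. The Egr1 and Hsp90aa1 calls were lost with adjustment over this comparison alone. Under DMSO Egr1 was called higher in the knockout (log2 0.93) and Apcs was called lower (log2 -0.53).

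**Figure D3:**
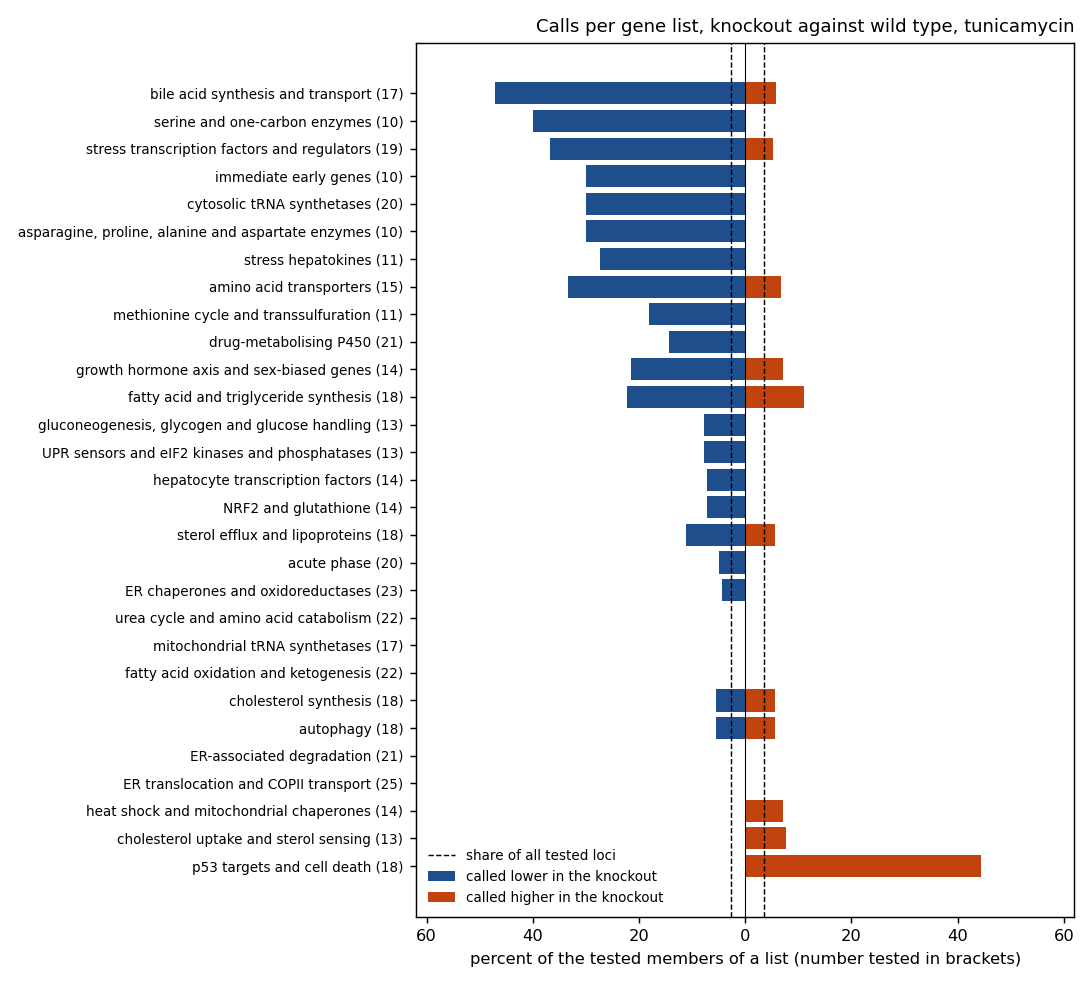
Percent of the tested members of each of 29 pathway lists called lower (blue, to the left) or higher (orange, to the right) in the stressed knockout, with the number tested in brackets and dashed lines at the shares of all tested loci (2.6% lower, 3.45% higher). Lists of bile acid, serine, stress regulator and amino acid transporter genes reach farthest left, and the list of p53 targets and cell death genes farthest right.

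Outside the lists, further genes stood among the 15 steepest falls with at least 5 FPKM. Extl1, an exostosin-like glycosyltransferase, had 1.09, 11.0, 0.186 and 1.997 FPKM in the order wild type DMSO, wild type tunicamycin, knockout DMSO and knockout tunicamycin, and was lower in the knockout under both treatments. Far1, which reduces fatty acyl-CoA to alcohols, had 1.13, 50.3, 1.27 and 14.0 FPKM, and Tspyl4 had 1.01, 10.9, 0.644 and 2.72. Rgs16, a regulator of G protein signalling, had 30.7, 20.1, 20.5 and 4.82 FPKM. Kansl2, a subunit of a histone acetyltransferase complex, had 32.5, 20.9, 41.7 and 4.28 FPKM. Krt23, a keratin, had 2.12, 10.3, 0.997 and 3.12. Among genes with at least 5 FPKM in unstressed wild-type liver, Enpp3, an ectonucleotidase, had 9.90, 10.8, 8.49 and 3.68 FPKM, Lepr, the leptin receptor, 6.43, 10.8, 3.28 and 4.54, and Ccl9, a chemokine, 35.9, 105, 19.6 and 50.2. Arl4d fell by 1.42 and Osbpl2 by 1.14 on the log2 scale. Like Extl1, the genes Krt23, Lepr, Ccl9 and Arl4d were also called lower under DMSO.

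In the list of p53 targets and cell death genes, 8 of 18 tested members rose and 0 fell, with a median of 0.31. All 8 were called with either adjustment. The transcription factor p53 answers DNA damage and other stress. The list also holds Bcl2l1, Mcl1, Bcl2l11 and Bid of the BCL2 family, which were not called. Phlda3, an inhibitor of AKT (mm9 chr1:137662662-137665711), had 9.21 FPKM in unstressed wild type, 0.736 in stressed wild type, 23.0 in the unstressed knockout and 12.5 in the stressed knockout (log2 4.09, interval 3.35 to 4.82). Eda2r, a TNF receptor family member, had 2.72, 0.167, 5.14 and 3.19 FPKM in the same order (log2 4.25). In both genes the stressed knockout lay above unstressed wild type, and stressed wild type lay lowest of the 4 groups. Cdkn1a, the cell cycle inhibitor p21, had 13.3, 38.8, 36.9 and 59.8 FPKM, and Bax, an apoptosis effector, 33.7, 20.1, 52.2 and 41.5. Zmat3 (2.04 against 5.50 FPKM under stress), Plk2 (3.16 against 8.73 FPKM), Ccng1 (26.8 against 49.4 FPKM) and Aen (14.6 against 25.7 FPKM) complete the rises. Mdm2, the p53 ubiquitin ligase (19.7 and 26.3 FPKM), Btg2 (66.4 and 55.8 FPKM) and Trp53inp1 (72.0 and 81.5 FPKM) were not called. All 8 that rose were also called higher under DMSO, as was Mdm2. None of the 8 belongs to the loci at least 5 times higher in the stressed knockout than in each other group, described next. The list was made with earlier results of these data known.

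Transcripts typical of other tissues were among those far more abundant in the stressed knockout than in the other groups. There were 175 loci at least 5 times higher in that group than in each of the other groups, 157 of them under 1 FPKM in each other group, and 94 of them were among the 391 called rises. Together they made up 0.636% of the summed FPKM of the stressed knockout and 0.0158% of that of stressed wild type. The 15 steepest rises with at least 5 FPKM all belong to this set. The set was chosen for high values in that group, so these counts and shares follow from the choice and are no test. Cyp11a1, which begins steroid synthesis, had 0.169 FPKM in unstressed wild type, 0.188 in stressed wild type, 0.009 in the unstressed knockout and 138 in the stressed knockout. Chga and Chgb, chromogranins of adrenal medulla granules, reached 41.7 and 37.1 FPKM against 0.075 and 0.044 in stressed wild type. Acta1, skeletal muscle actin, reached 109 FPKM against 1.21, and Cfd, adipsin of fat cells, 84.3 against 0.274.

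Marker lists sort such transcripts by tissue. They hold Cyp11a1, Chga, Chgb, Acta1 and Cfd themselves and were written with earlier results of these data known, so they are no separate support. Adrenal cortex markers summed to 9.25 FPKM in unstressed wild type, 23.5 in stressed wild type, 6.77 in the unstressed knockout and 1290 in the stressed knockout, and 2 of the 10 listed genes reached 1 FPKM in stressed wild type against 8 in the stressed knockout. Star, Cyp21a1 and Hsd3b1 reached 232, 175 and 244 FPKM in that group without being called. Adrenal medulla markers summed to 2.23, 2.58, 1.53 and 140 FPKM, and 1 of 7 reached 1 FPKM in stressed wild type against all 7 in the stressed knockout; Pnmt and Th were listed at 0 in both DMSO groups. Skeletal muscle markers summed to 1.83, 7.15, 2.41 and 486 FPKM, and 2 of 12 reached 1 FPKM in stressed wild type against all 12 in the stressed knockout. Most of these genes passed the 1 FPKM limit only through the group where they are high, so counts of calls among them are not given. Fat markers summed to 1080.5, 617, 1114 and 957 FPKM because Car3, which liver also expresses, made up most of each sum, while Fabp4, a fat cell lipid carrier, rose from 24.1 to 136 FPKM. Kidney, pancreas and gut markers summed to 20.7 FPKM in stressed wild type and 19.1 in the stressed knockout, and Cuffdiff called 0 of the 2 tested, with 0 at an unadjusted p under 0.05. With 1 pooled value per group, it cannot be seen whether 1 or all 3 libraries carry these transcripts. Without the 175 loci, 297 rises and 294 falls remained.

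**Figure D4:**
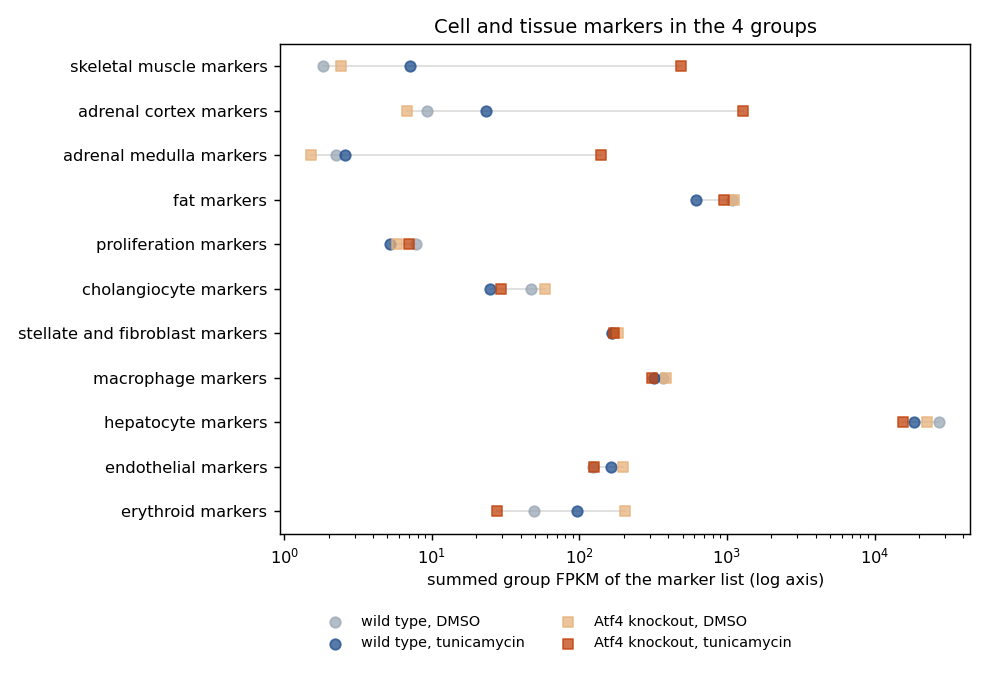
Summed group FPKM of marker lists with at least 3 member loci, on a log axis; circles are wild type, squares knockout, pale DMSO and dark tunicamycin. Adrenal cortex, adrenal medulla and skeletal muscle sums stand far to the right in the stressed knockout group alone, while macrophage and stellate sums lie together.

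Markers of liver cell types were mostly not called. Of 8 tested hepatocyte markers 1 fell, Hnf4a, and the median was -0.18; Alb is listed at 0 in every group because it exceeded what could be tested. Endothelial genes counted 2 of 12 lower, Lyve1 (12.4 against 8.06 FPKM) and Clec4g (44.3 against 29.3 FPKM), with a median of -0.31. Both calls were lost with adjustment over this comparison alone. Under DMSO 9 of the same 12 were higher in the knockout, against 1.55% of all loci tested under both treatments. Of 12 macrophage markers Cuffdiff called 0, with 0 at an unadjusted p under 0.05 and a median of -0.07. Des, desmin, was the 1 of 11 stellate markers that rose (1.74 against 7.53 FPKM), and it is a muscle protein as well. Erythroid transcripts summed to 48.9 FPKM in unstressed wild type, 96.2 in stressed wild type, 205 in the unstressed knockout and 27.5 in the stressed knockout, with 0 of 3 tested called by Cuffdiff and 0 of them at an unadjusted p under 0.05.

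Among loci with at least 5 FPKM in unstressed wild-type liver, the 15 steepest rises mixed liver genes and genes of other tissues. Nrep had 35.7 FPKM in unstressed wild type, 1.59 in stressed wild type, 35.6 in the unstressed knockout and 13.1 in the stressed knockout (log2 3.04). Ces1b, a carboxylesterase, had 54.6, 2.29, 48.5 and 5.78 FPKM, and Sulf2, a heparan sulfatase, 12.2, 3.21, 19.1 and 8.24. In these 3 genes the stressed knockout lay between stressed wild type and both DMSO groups. Hao2, a peroxisomal hydroxyacid oxidase, had 8.26, 4.43, 3.37 and 12.2 FPKM. Tubb2a, a tubulin (17.2, 19.1, 22.6 and 75.04 FPKM), Slc25a4, the ADP/ATP carrier of heart and muscle (6.37, 6.68, 6.95 and 38.3 FPKM), Pkm, a pyruvate kinase (5.85, 5.54, 7.40 and 17.0 FPKM), and Cox7a1, a muscle cytochrome oxidase subunit (7.58, 3.90, 4.89 and 16.4 FPKM), were highest in the stressed knockout, the group in which muscle markers summed to 486 FPKM. The part of those transcripts in these rises was not tested. Pcolce, Lpl and Mgp rose by 2.13, 1.26 and 1.30 on the log2 scale.

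The same genotypes were also compared under DMSO, in which the groups share no library with the tunicamycin groups. In the 11066 loci tested in both, 171 were higher (1.55%) and 181 lower (1.64%) in the unstressed knockout. Of 277 stress falls tested under DMSO, 33 were also lower there (11.9% of the stress falls, 18.2% of the DMSO falls) and 7 were higher. Of 302 stress rises, 40 were also higher under DMSO (13.2% of the stress rises, 23.4% of the DMSO rises) and 9 were lower. The difference between both knockout effects, tested with normal statistics from the derived standard errors and Benjamini-Hochberg adjustment, passed at 139 of 11059 loci (1.26%), 52 more negative and 87 more positive under tunicamycin. With the deposited statistic not rescaled, 19 loci passed, so most of these calls rest on the rescaling. As rescaled, the difference passed at 24 of the 277 falls and at 74 of the 302 rises. These loci were picked by their tunicamycin effect, which is part of the difference, so shares above that of all loci follow from the choice. The 74 include 19 of the 22 tested rises that were at least 5 times higher in the stressed knockout than in each other group. The knockout DMSO group is the one that ran on lane 5, so a lane effect cannot be told apart from this difference.

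Among named genes, the knockout effect was more negative under tunicamycin for Slc6a9 by 1.41, SE 0.29 on the log2 scale, for Chac1 by 1.59, SE 0.44, for Aldh18a1 by 2.20, SE 0.48, and for Far1 by 2.01, SE 0.39. It was more positive for Phlda3, by 2.76, SE 0.46. Fgf21 differed by 0.01 between treatments, with an SE of 0.72. Cd97, an adhesion receptor of blood cells, changed sides: it had 7.496 and 29.9 FPKM in the unstressed groups, wild type first, and 29.99 and 8.19 in the stressed groups. Asns, Psat1, Aldh1l2 and Slc7a1 were too low under DMSO for a test there, so their difference was not tested.

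**Figure D5:**
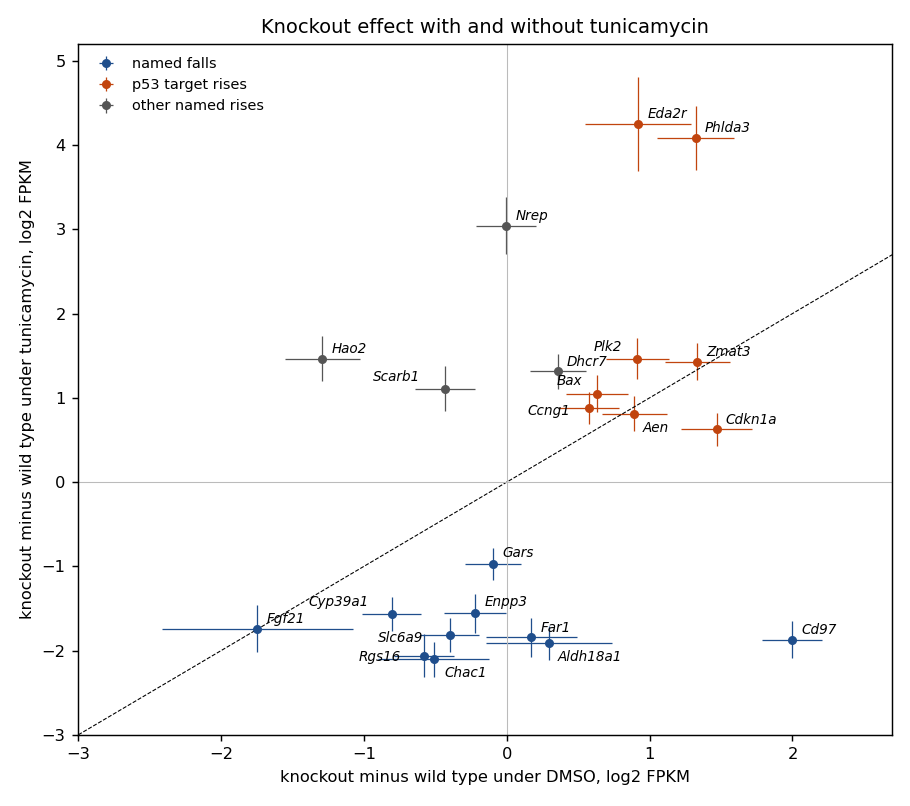
Knockout minus wild-type log2 FPKM under DMSO (horizontal) and under tunicamycin (vertical) for 22 named genes; bars are standard errors derived from the deposited test statistic and the dashed line marks equal effects. Far1 and Aldh18a1 lie far below the line and close to 0 on the horizontal axis, Cd97 lies on opposite sides of 0 under both treatments, and Phlda3 and Eda2r lie far above the line.

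At the 1 FPKM limit, Col16a1 and Ammecr1 were the last loci inside, at 1.00 FPKM in the stressed knockout, with 0.854 and 0.717 in stressed wild type. Tmem102 (1.00 and 0.767 FPKM, wild type first) and Gm13157 (0.890 and 0.998 FPKM) were the first outside, and none of the 4 was called. Of the 11343 loci 16 had no test, and 1 of them, Foxo3, failed it at 15.9 against 9.71 FPKM.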

How the data were processed

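Poly(A)-selected liver RNA from 12 libraries, with ERCC spike-ins, was sequenced, per the labels. Per the submitters' processing notes, the tools were bcl2fastq, TopHat2 2.0.4, Cufflinks and Cuffdiff, on mm9. The deposited table gives, per the file headers, for each locus 1 FPKM per group and, in 6 comparisons, the log2 fold change, the statistic of the test (a score), the p-value and the q-value. The deposited q-values equal a Benjamini-Hochberg adjustment over 90828 tests of all 6 comparisons, and the smallest deposited p-value is 5e-05. Values per library were not analysed here, and the table's last column, which has no name (6427 filled cells), was not used. Whether libraries are separate mice is not stated, so p-values may measure technical spread only.

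From this table, log2 ratios were recomputed from FPKM and matched the deposited log2 fold changes within 1.3e-05. Standard errors are the log2 fold change over the deposited statistic, rescaled by 1 median factor per comparison (0.575). With this factor a normal test returns the deposited p-value at a typical locus but not at each locus. Single intervals can therefore be too narrow or too wide. The 95% intervals are 1.96 of these errors. The difference of the knockout effects used these errors, two-sided, adjusted over 13744 loci. This step was tested on simulated data. Promoters came from the RefSeq table for GRCm38.p6. The work used matplotlib 3.10.9, scipy 1.17.1, pandas 2.3.3 and numpy 2.4.6 under Python 3.11.15.

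Genes were named by rule: the 15 steepest rises and falls among called loci of 1 gene name with at least 5 FPKM, the same with at least 5 FPKM in unstressed wild type, up to 5 called and 3 abundant uncalled members of each list, the Atf4 locus and the loci nearest 1 FPKM. Slc7a11, Foxo3 and a few further called members of short lists were named after their values were seen. The members and lists were chosen with earlier results of these data known. Alternatives were the adjustment, the FPKM limit, a 2-fold limit, loci with several names, loci 5 times higher in 1 group, 1 FPKM added before logs, centring and an unscaled statistic. Markers of lymphocytes (1 tested), neutrophils (2), cholangiocytes (3), erythroid cells (3) and proliferation (4) were also counted: Cuffdiff called 0 of them, and 1 proliferation gene had an unadjusted p under 0.05.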

Additional observations from a re-analysis of the deposited data

Results flagged for a closer look

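The difference between the knockout effect under tunicamycin and that under DMSO passed its threshold at 139 loci (19 with the deposited statistic not rescaled), and at 20 of the genes named as the steepest rises and falls. It was more negative under tunicamycin, on the log2 scale, by -3.87 for Cd97, -2.2 for Aldh18a1, -2.01 for Far1, -1.59 for Chac1, -1.48 for Rgs16, -1.41 for Slc6a9 and -1.33 for Enpp3. Aldh18a1, Far1 and Chac1 were not called under DMSO. Cd97 was higher in the knockout under DMSO and lower under tunicamycin, and both differences were called. The 20 genes were picked by their tunicamycin effect, which is part of the tested difference, so their number is no test.

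The difference was more positive for Phlda3, at 2.76, Nrep at 3.05 and Ces1b at 1.51. It was also more positive for Akr1c18 (6.96), Cfd (4.35), Hao2 (2.76), Cox7a1 (2.7), Slc25a4 (2.4), Fabp4 (2.06), Pcolce (1.94), Tubb2a (1.58), Lpl (1.5) and Pkm (1.28). These 10 were highest in the stressed knockout, where markers of adrenal cortex and muscle were also highest; the part of those tissues in these values was not tested. The unstressed knockout alone ran on lane 5, so lane cannot be told apart from any of these differences.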

How the results depend on the processing

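No paired analysis was possible because the table holds 1 pooled value per group and the labels give no numbers that pair libraries; leaving out each library could not be run for the same reason. The 685 calls became 440 (155 of them lower) with p-values adjusted over this comparison alone, 421 (164 higher) with at least 5 FPKM in either group and 351 (69 lower) with changes of at least 2-fold. Counts stayed within 1.5 times of the reported ones without an FPKM limit (819), without loci of several names (668) and without loci 5 times higher in the stressed knockout (591). Calls over the pathway lists went from 80 to 55 with the narrower adjustment. Of 164 called named loci, 36 lost their call with it; no called one changed direction. Centring, which shifts all log2 values by the median of -0.05, turned the sign of 24 uncalled named loci of 633, Cpt1a and Aldh1l1 among them, and of 2 list medians, fatty acid synthesis (-0.02 to 0.03) and glucose handling (-0.04 to 0.01). The 139 differing knockout effects became 19 with the statistic not rescaled, so those calls rest on the rescaling. Adding 1 FPKM before logs moved 7 of 43 list medians, the serine list to -0.59, adrenal cortex to 6.72, adrenal medulla to 4.01 and muscle to 4.57. Depth per library is unknown, and ratios of loci near 0 FPKM are imprecise.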

Other observations

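The genes below were picked after their values were seen and carry no weight beyond their own calls. Of genes linked to retinoids, 4 that fell were picked, while Lrat, the retinol acyltransferase, was not called (log2 0.15). Cyp26a1, which degrades retinoic acid, had 34.3 FPKM in unstressed wild type, 9.52 in stressed wild type, 16.5 in the unstressed knockout and 3.49 in the stressed knockout. Rarres1, a retinoic acid responsive gene, had 47.6 against 23.5 FPKM under stress, Dhrs3, a retinal reductase, 66.7 against 38.5, and Dhrs9, a retinol dehydrogenase, 7.47 against 4.27. The merged metallothionein locus Mt1/Mt2, of metal-binding stress proteins, went from 1016.6 to 2526 FPKM in wild type and from 739 to 1014.7 in the knockout (log2 -1.32). Pck2, the mitochondrial PEP carboxykinase, had 3.69 against 1.62 FPKM under stress, and Grb10, an adaptor that dampens insulin signalling, 12.0 against 5.49. Egfr, the EGF receptor, was lower at 89.1 against 49.7 FPKM, Irs2, an insulin receptor substrate, at 4.79 against 2.71 and Klb, the FGF21 co-receptor, at 20.8 against 12.2, while Ghr, the growth hormone receptor, was not called (log2 -0.21). The locus that carries F630028O10Rik and Mir223 was low in the knockout under both treatments, by -4.65 under DMSO and -4.77 under tunicamycin on the log2 scale. Cyp26a1 and Klb were also called lower under DMSO.

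Of genes linked to p53, 3 more that rose were picked. Psrc1 had 0.140 against 1.31 FPKM under stress, the locus named Mir34a 0.632 against 4.33, and Ddit4l 0.245 against 1.15, and all 3 were higher under DMSO too. Of 7 imprinted genes or loci picked, 6 rose and 3 belong to the loci 5 times higher in the stressed knockout; H19 reached 13.0 FPKM against 0.418 and Peg10 4.79 against 0.187. Adrenal and muscle markers were high in the same group, and their part in these rises was not tested. Alas1, the first enzyme of heme synthesis, rose from 41.3 to 64.0 FPKM and Ephx1, an epoxide hydrolase, from 125 to 234.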
